A study of Mus musculus with 12 samples.

Results

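Bach2, Batf, Batf3, Bcl6, Bcl11a, Bcl11b, Bhlhe40, Cbfb, Cbfa2t3 and Crem code for transcriptional regulators that act in lymphocytes. These 10 genes were chosen by symbol from a table of 5545 genes measured by RNA-seq in NK cells and type 1 innate lymphoid cells (ILC1) of the mouse liver. The table used here runs in alphabetical order to Cyp26b1, and no later gene was analysed. All 10 genes were in the table. Of these, 9 passed the filter on low counts, as did 2606 genes in all, and Bcl11a did not.

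The cells came from 6 female C57BL/6 mice, which the study's methods give as C57BL/6J. After weaning, 3 lean mice received RM1 standard chow, and 3 obese mice received the obesogenic diet 824018 (45% AFE fat) with condensed milk, in both cases for 12 weeks. From the liver of each mouse, Lin- NK1.1+ cells were sorted into CD49b+ CD49a- NK cells and CD49a+ CD49b- ILC1. Each of the 12 libraries belongs to 1 of 4 groups of 3, named by diet and cell type (lean or obese NK, lean or obese ILC1). No mouse carried an altered allele according to the labels, and the age at weaning is not given in the sources used here. Mice are numbered 25, 26 and 27 in each diet group, and a lean and an obese mouse with the same number were different animals. Levels below are the authors' normalized counts, which are raw counts divided by 1 factor for each library, and values of 3 libraries are given in the order of mice 25, 26 and 27.

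The 10 genes fall into families by how their proteins act. BATF, BATF3, BACH2 and CREM are basic leucine zipper (bZIP) proteins that bind DNA as dimers, and BHLHE40 is a basic helix-loop-helix repressor that binds E-boxes. BCL6, BCL11A and BCL11B are zinc finger proteins that recruit corepressors, CBFA2T3 is itself a corepressor, and CBFB binds RUNX proteins and strengthens their hold on DNA. NK cells and ILC1 are related lymphocytes that share RUNX factors and the T-box factor Tbet and differ in circulation, residency and cytotoxicity. The T-box factor Eomes, according to the study, is found in NK cells only.

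The promoters of Batf and Bcl6 are shown because they hold letters that proteins from this group of genes, or their partners, bind. They are the 250 bases before the transcription start in RefSeq (GRCm38.p6), read 5′ to 3′ on the strand of the gene. In the Batf promoter, chr12:85686470-85686719 on the plus strand, the capitals mark the core motif of RUNX proteins, the partners of CBFB, at 149 and 56 bases before the start. The GENCODE annotation places the start of Batf at 85686669, inside this window, so these distances hold for the RefSeq start only. In the Bcl6 promoter, chr16:23988853-23989102 on the minus strand, the capitals mark an E-box of the kind that BHLHE40 binds, at 60 bases before the start.
Batf: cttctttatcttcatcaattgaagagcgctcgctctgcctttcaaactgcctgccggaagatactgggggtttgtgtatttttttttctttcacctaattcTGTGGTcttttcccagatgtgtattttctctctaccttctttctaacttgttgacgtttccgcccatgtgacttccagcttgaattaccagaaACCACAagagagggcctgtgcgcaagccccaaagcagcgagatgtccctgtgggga
Bcl6: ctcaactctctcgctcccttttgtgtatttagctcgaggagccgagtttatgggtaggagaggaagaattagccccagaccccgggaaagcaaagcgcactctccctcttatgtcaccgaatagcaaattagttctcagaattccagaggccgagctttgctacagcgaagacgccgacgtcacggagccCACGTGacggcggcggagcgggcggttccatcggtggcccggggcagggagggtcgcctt
Promoter sequences were matched for 8 of the 10 genes (10 promoters), without Bhlhe40 and Crem. The RUNX core (TGTGGT or ACCACA) was in 14.0% of 32851 promoters of the same length and, among those of the 8 genes, in that of Batf alone. The E-box (CACGTG, which reads the same on both strands) was in 6.02% of all promoters, in that of Batf3 and in 1 of the Bcl6 promoters. An AP-1 site (TGACTCA or TGAGTCA, in 4.46% of all promoters) and a CRE (TGACGTCA, in 1.55%) were in none of the 10. Both strands were searched, and the sequences printed hold no match of a second of these motifs. A match describes letters in this window and says nothing of binding.

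Among the 12 libraries, 3 stood apart, and they are named beside the values they move. Library totals over the genes analysed here ran from 1666637 to 2826766 counts. Obese ILC1 of mouse 26 had the most RNA of markers of other liver cells. Its summed level of 8 hepatocyte markers was 92424 counts per 1000000 counts of the library over the genes analysed here (CPM). The other obese ILC1 libraries had 156 and 607, and lean ILC1 had 89.4 to 108. The B cell and dendritic cell lists were also highest in obese ILC1 of mouse 26. Obese ILC1 of mouse 25 and lean NK of mouse 27 had gaps. Among genes with a median of at least 100 normalized counts in the other libraries, 14.3% and 10.4% had at most 2 counts there, beside 0 to 1.03% in the other 10 libraries. Of the ILC1 markers Cd200r1, Cxcr3 and Cxcr6, the summed level was 14423 to 17899 CPM in lean ILC1, 2961 to 14885 in obese ILC1 and 159 to 1021 in NK cells, and the sum of the NK markers Cma1 and Cx3cr1 was higher in every NK library than in any ILC1 library. Cx3cr1 by itself was highest in obese ILC1 of mouse 26, at 3111 normalized counts beside 887 to 2362 in NK libraries.

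**Figure D1:**
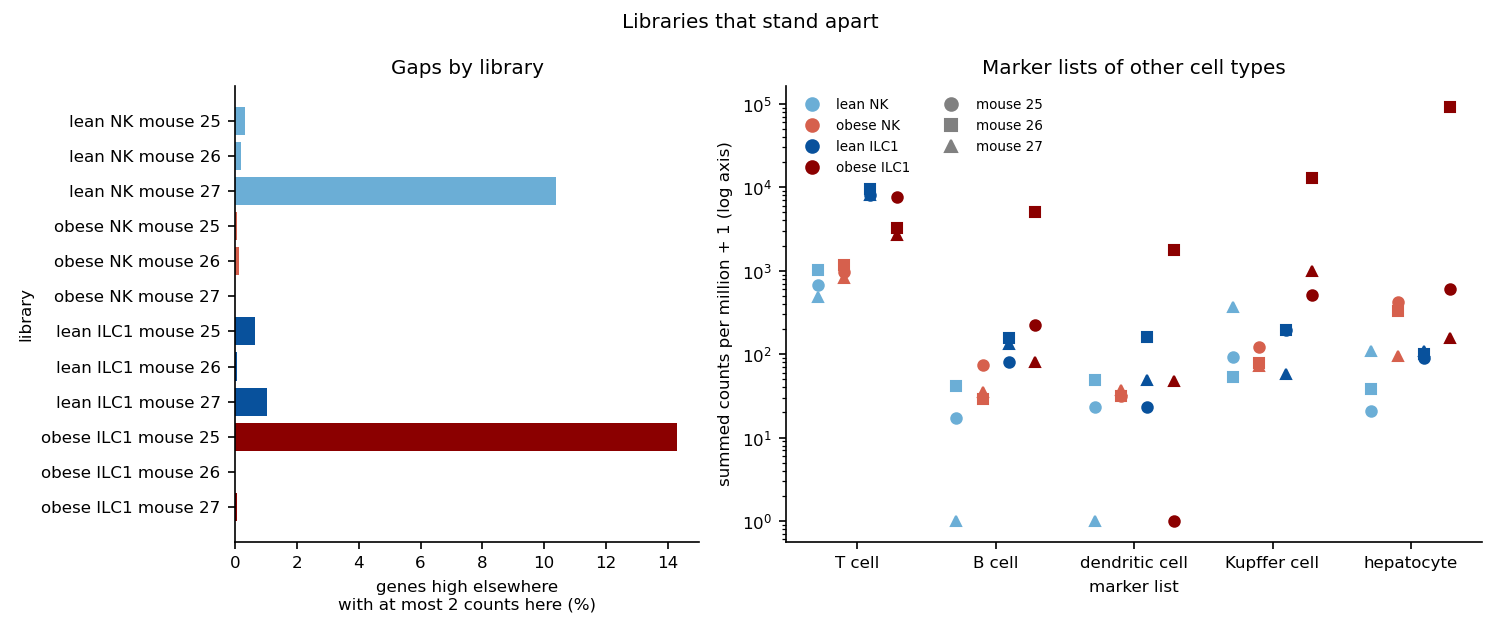
Left, share (%) of genes high in the other libraries that had at most 2 counts in the library named on the axis. Right, summed CPM plus 1 (log axis) of 5 marker lists in each of the 12 libraries, where obese ILC1 of mouse 26 lies highest in the B cell, dendritic cell, Kupffer cell and hepatocyte lists.

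Differences between ILC1 and NK cells in these genes were few at the thresholds used. A gene was called where the fold change exceeded 2 and the adjusted p of edgeR's quasi-likelihood test was under 0.05. Averaged over both diets, 0 of the 9 genes tested were called and 3 had an unadjusted p under 0.05. Among all genes tested, 3.15% were called higher and 1.19% lower in ILC1. The median log2 fold change was -0.19 over the 9 genes and 0.04 over all genes tested. In lean mice 0 of the 9 genes were called, beside 1.5% of all genes higher and 0.806% lower. In obese mice Bhlhe40 was called lower in ILC1 and no other of these genes was called, beside 0.537% of all genes higher and 0.384% lower.

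The levels of 5 of the 9 genes tested did not overlap between lean ILC1 and lean NK libraries. Batf, Bcl11b and Cbfa2t3 were higher in all 3 lean ILC1 libraries, and Bcl6 and Crem were lower. Of all genes tested, 24.9% did not overlap in that comparison. In obese mice 1 gene, Bhlhe40, did not overlap, beside 23.1% of all genes. None of the 10 genes separated all 6 ILC1 from all 6 NK libraries, as 5.68% of all genes did.

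**Figure D2:**
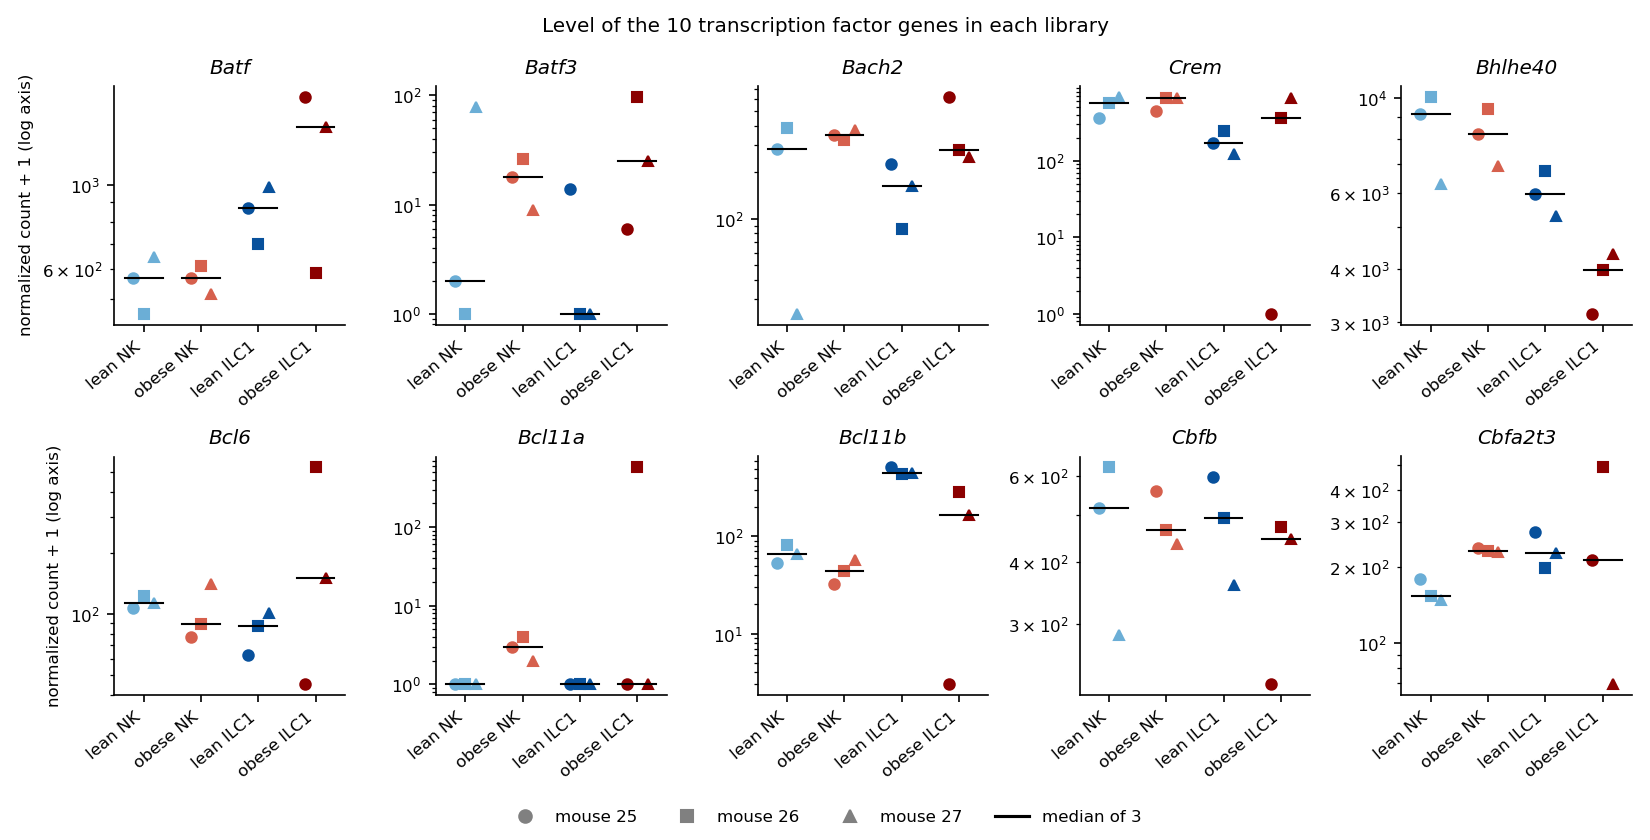
Normalized count plus 1 (log axis, a scale for each gene) of the 10 genes in each library, with 1 symbol for each mouse number and a line at the median of the 3 libraries of a group. Bhlhe40 is lowest in obese ILC1, Bcl11b is highest in lean ILC1, and Bcl11a lies far above 0 in obese ILC1 of mouse 26 alone.

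Bhlhe40, a repressor that in T cells shapes cytokine output, had the highest normalized counts of the 10 genes and the lowest adjusted p between the cell types. Its normalized counts were 9180, 10047 and 6293 in lean NK and 8227, 9420 and 6950 in obese NK. They were 5967, 6748 and 5297 in lean ILC1 and 3142, 3967 and 4333 in obese ILC1. All obese ILC1 libraries lay below the other 9, and lean ILC1 overlapped with NK cells only through lean NK of mouse 27. The means were 8507 ± 1965 (SD, n = 3) in lean NK, 8199 ± 1235 in obese NK, 6004 ± 726 in lean ILC1 and 3814 ± 610 in obese ILC1. In bulk samples such as these, fewer cells of a type and less RNA per cell cannot be told apart.

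Averaged over both diets, Bhlhe40 was 1.77-fold lower in ILC1 (log2 fold change -0.82, SE 0.151, adjusted p = 0.00822 by edgeR's quasi-likelihood test). This passed the p threshold and not the fold threshold. Its adjusted p stayed between 0.000229 and 0.0384 over 21 alternatives, which include each of the 12 libraries left out in turn. In obese mice Bhlhe40 was 2.23-fold lower in ILC1 (log2 fold change -1.16, SE 0.215, adjusted p = 0.0289). With the mouse as a block, which pairs the NK cells and ILC1 of 1 animal, the value was -1.16 with an adjusted p of 0.128, and no gene of the whole table was called in obese mice. The adjusted p was also 0.149 with the obese libraries alone, and from 0.0131 to 0.159 as each library was left out. In lean mice the log2 fold change was -0.49 (SE 0.212, adjusted p = 0.356).

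Bcl11b codes for a zinc finger factor required for commitment to the T cell lineage, and it is also used by some innate lymphoid cells. Normalized counts were 52, 81 and 65 in lean NK and 514, 442 and 449 in lean ILC1, so that the lowest lean ILC1 library lay well above the highest lean NK library. They were 31, 43 and 56 in obese NK and 2, 289 and 166 in obese ILC1. Obese ILC1 of mouse 25, the library with the most gaps, held 2 raw counts and lay below every NK library, and the other obese ILC1 libraries lay above them all. The mean was 468 ± 39.7 (SD, n = 3) in lean ILC1 and 66.0 ± 14.5 in lean NK, a ratio of 7.10.

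The Bcl11b difference did not pass the test. The log2 fold change of ILC1 over NK was 2.28 (SE 0.734, adjusted p = 0.102) averaged over diets, 2.84 (SE 1.06, adjusted p = 0.251) in lean mice and 1.73 (SE 1.02, adjusted p = 0.549) in obese mice, each by edgeR's quasi-likelihood test. Without obese ILC1 of mouse 25 the values were 2.57 (adjusted p = 0.000605), 2.84 (adjusted p = 0.00362) and 2.30 (adjusted p = 0.0286), all past both thresholds. They were 1.87 (adjusted p = 0.160), 2.81 (adjusted p = 0.189) and 0.93 (adjusted p = 0.776) without obese ILC1 of mouse 26, none past them. With the lean libraries alone it was 2.83 with an adjusted p of 0.00945. Over its alternatives the adjusted p of the averaged difference ran from 0.000118 to 0.540.

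T cell markers moved with Bcl11b between the groups in lean mice. The summed level of 9 such genes was 8092 to 9495 CPM in lean ILC1 and 485 to 1028 in lean NK, and 3 of the 7 that could be tested were called higher in ILC1 in lean mice. Most of that sum was Cd3g, a chain of the T cell receptor complex, at 12468 to 13673 normalized counts in lean ILC1. Cd3d, Cd3e, Cd5 and Cd6 were also higher in each lean ILC1 library than in any lean NK library, Cd28 overlapped, Cd4 was at 0 in 1 lean ILC1 library, and Cd8a and Cd8b1 were at 0 in all 3. In obese ILC1 the summed level was 7711, 3213 and 2677 CPM. In mouse 25, with 2 counts of Bcl11b, that sum came mostly from Cd3g and Cd28, and 5 of the 9 markers (Cd4, Cd5, Cd6, Cd8a and Cd8b1) were at 0. Mouse 26 had the highest values of the series for these 5 markers and for Cd3e, with Cd8a at 353 and Cd8b1 at 786 normalized counts. Its Cd3g and Cd28 lay below every lean ILC1 library, and its Cd3d lay within the lean ILC1 range. The part of T cells in the Bcl11b level was not tested.

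Bcl11a, which serves B cells and plasmacytoid dendritic cells, was close to absent outside 1 library. It had 0 counts in 8 libraries, among them all 6 of lean mice, and 3, 4 and 1 raw counts in obese NK. Obese ILC1 of mouse 26 had 327 raw counts, or 574 normalized counts. A floor set at 3 counts corresponds to 1.06 to 1.8 CPM in a library, and lower levels cannot be reliably told from absence at this depth. In the libraries with gaps, genes high elsewhere also fell below it. The counts of obese NK lie at or near that floor, and their comparison with lean NK gave a two-sided exact permutation p of 0.1, the smallest that 3 against 3 can give. In obese ILC1 of mouse 26 the 5 B cell markers summed to 5095 CPM, beside 79.1 to 222 in the other obese ILC1 libraries and 78.7 to 157 in lean ILC1, and none of the 5 was at 0. The 6 dendritic cell markers summed to 1774 CPM there, beside 0 and 46.0 in the other obese ILC1 libraries. Whether those cells carried the Bcl11a reads was not tested.

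Bcl6, the repressor of germinal centre B cells and follicular helper T cells, had the same outlying library. Its normalized counts were 106, 121 and 112 in lean NK, 76, 88 and 140 in obese NK and 62, 86 and 100 in lean ILC1. In obese ILC1 they were 44, 526 and 150, with the value of mouse 26 above all others. Lean ILC1 (82.7 ± 19.2, SD, n = 3) lay below lean NK (113 ± 7.55) in every library. The averaged log2 fold change of ILC1 over NK was 0.36 (SE 0.544, adjusted p = 0.855), and it was -0.27 (adjusted p = 0.862) without obese ILC1 of mouse 26.

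Batf, a bZIP partner of JUN and IRF proteins in effector lymphocytes, was the second most abundant of these genes per kilobase of exon, by the median over the 12 libraries. Its normalized counts were 569, 457 and 646 in lean NK, and 567, 609 and 516 in obese NK. In lean ILC1 they were 866, 698 and 985, all above every NK library. In obese ILC1 they were 1703, 584 and 1415, with mice 25 and 27 at the highest levels of the series and mouse 26 within the NK range. Means were 557 ± 95.0 (SD, n = 3) in lean NK, 564 ± 46.6 in obese NK, 850 ± 144 in lean ILC1 and 1234 ± 581 in obese ILC1.

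The Batf difference missed the thresholds with all libraries, and 2 of its 3 values passed them without 1 library. The log2 fold change was 0.86 (SE 0.256, adjusted p = 0.0814) averaged over diets, 0.62 (SE 0.361, adjusted p = 0.568) in lean mice and 1.09 (SE 0.364, adjusted p = 0.196) in obese mice by edgeR's quasi-likelihood test. Without obese ILC1 of mouse 26, whose ILC1 markers were the lowest among ILC1 libraries, it was 1.01 (adjusted p = 0.00275) averaged and 1.43 (adjusted p = 0.0129) in obese mice, both past the thresholds, and 0.60 (adjusted p = 0.189) in lean mice. The value in obese mice was 0.78 without obese ILC1 of mouse 25. Over 21 alternatives the adjusted p of the averaged difference ran from 0.000847 to 0.297, the latter with the mouse as a block.

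**Figure D3:**
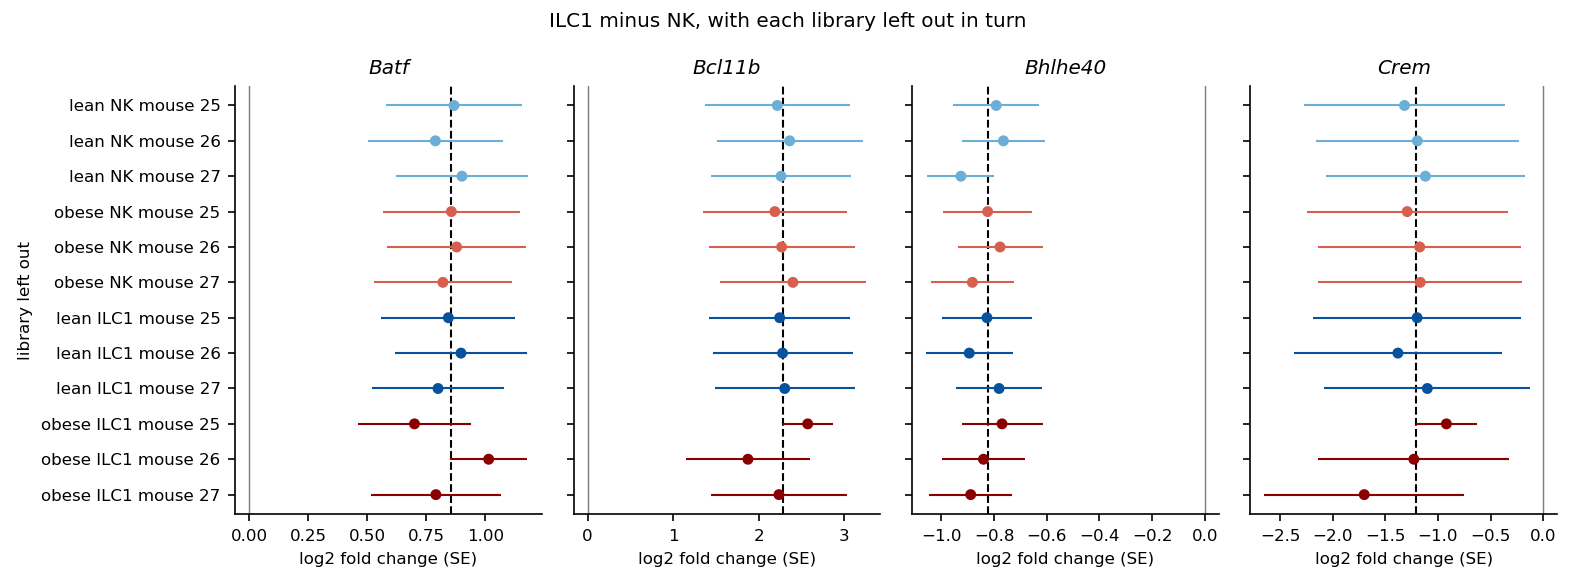
Log2 fold change of ILC1 over NK, averaged over diets, with its standard error, for 4 genes after leaving out the library named on the axis. The dashed line is the value with all 12 libraries. Batf is highest at 1.01 without obese ILC1 of mouse 26, and the error of Bcl11b is smallest without obese ILC1 of mouse 25.

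Crem codes for a bZIP factor that answers to cyclic AMP and includes the repressor ICER. Normalized counts were 360, 568 and 687 in lean NK and 446, 658 and 656 in obese NK. Lean ILC1, at 170, 242 and 121, lay below all 6 NK libraries. Obese ILC1 spread from 0 in mouse 25 through 358 in mouse 26 to 657 in mouse 27, from below every other library to within the range of the NK groups. The mean was 178 ± 60.9 (SD, n = 3) in lean ILC1 and 538 ± 166 in lean NK, 3.03-fold lower in ILC1. The log2 fold change by edgeR's quasi-likelihood test was -1.58 (SE 1.23, adjusted p = 0.738) in lean mice, -0.84 (SE 1.21, adjusted p = 0.898) in obese mice and -1.21 (SE 0.859, adjusted p = 0.559) averaged. Without obese ILC1 of mouse 25 it was -0.26 in obese mice and -0.92 averaged, and without that of mouse 27 it was -1.82 and -1.70. With the 3 libraries that stood apart left out, the lean difference was -1.38, while the one in obese mice turned to 0.13. That setting was chosen after seeing the data. It leaves mouse 27, the highest of the obese ILC1 libraries for Crem, alone in its group.

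Bach2 restrains effector differentiation in lymphocytes. It had 281, 390 and 23 normalized counts in lean NK, where mouse 27, with its gaps, was the lowest library of the series, and 348, 322 and 375 in obese NK. It had 225, 85 and 161 in lean ILC1 and 620, 277 and 250 in obese ILC1, and these groups did not overlap. The averaged log2 fold change of ILC1 over NK was -0.24 (SE 0.561, adjusted p = 0.911), and it lay between -0.52 and 0.055 as each library was left out, above 0 without lean NK of mouse 26.

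Batf3, which is needed for cross-presenting dendritic cells, was low. It had 1, 0 and 78 normalized counts in lean NK, 17, 25 and 8 in obese NK, 13, 0 and 0 in lean ILC1 and 5, 96 and 24 in obese ILC1. The highest values were in obese ILC1 of mouse 26 and lean NK of mouse 27, both among the libraries that stood apart. The averaged log2 fold change of ILC1 over NK was -0.63 (SE 1.46, adjusted p = 0.910) and turned to 2.07 without lean NK of mouse 27.

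Cbfb codes for the shared partner of all RUNX proteins, and its levels overlapped across the groups. Its normalized counts were 514, 623 and 283 in lean NK, 557, 464 and 435 in obese NK, 596, 492 and 358 in lean ILC1 and 225, 470 and 445 in obese ILC1. The lowest values belonged to the libraries with gaps, and the other 10 libraries ran from 358 to 623. The averaged log2 fold change of ILC1 over NK was -0.19 (SE 0.279, adjusted p = 0.852).

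Cbfa2t3, a corepressor of the ETO family that acts in blood progenitors, was even within both NK groups. It had 178, 152 and 147 normalized counts in lean NK and 235, 229 and 228 in obese NK, so that the NK groups did not overlap. Lean ILC1, at 273, 196 and 225, also lay above lean NK. Obese ILC1, at 211, 489 and 68, held both the highest and the lowest value. The averaged log2 fold change of ILC1 over NK was 0.31 (SE 0.413, adjusted p = 0.829), and without obese ILC1 of mouse 26 it was -0.12 (adjusted p = 0.929).

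**Figure D4:**
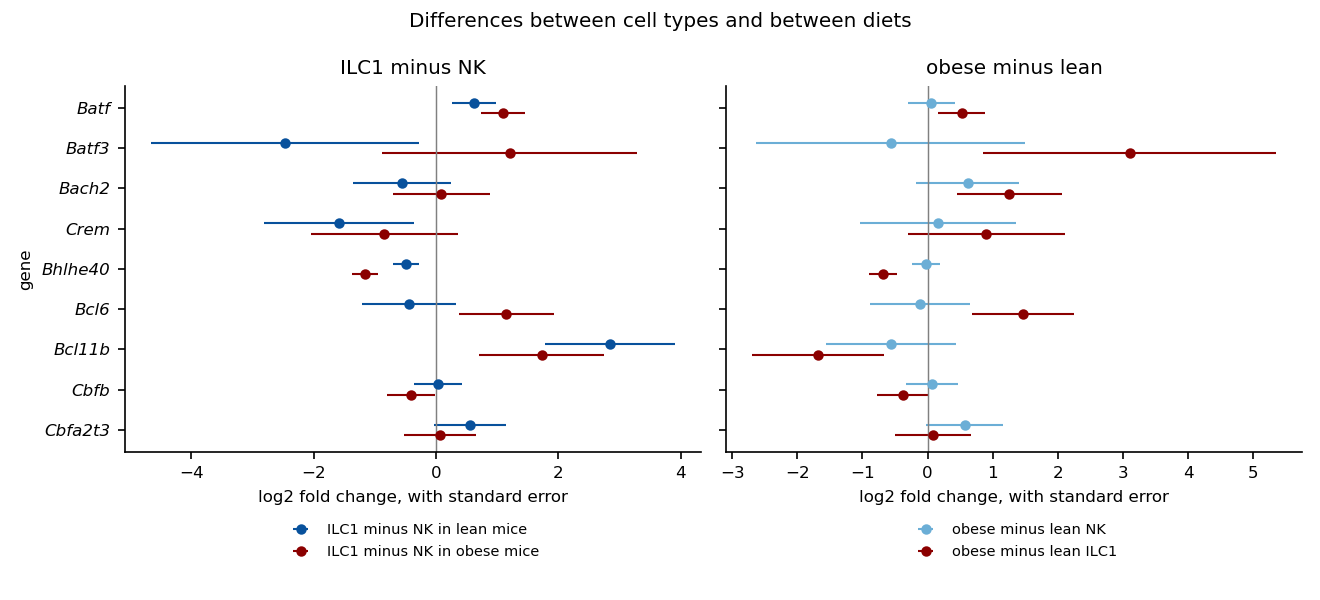
Log2 fold change with its standard error of the 9 genes tested, for ILC1 minus NK in lean and obese mice (left) and for obese minus lean in NK cells and ILC1 (right). Bhlhe40 in obese mice, at -1.16, is the only difference called.

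Per kilobase of merged exons, the median level over the 12 libraries was highest for Bhlhe40 at 1386 normalized counts, followed by Batf at 446, Cbfb at 134 and Crem at 68.4. Then came Bach2 at 28.1, Cbfa2t3 at 26.0, Bcl6 at 15.4, Bcl11b at 9.0, Batf3 at 6.58 and Bcl11a at 0. Batf (325 to 1211 per kilobase) lay above Cbfb (64.7 to 179) in every library. The ranges of all other neighbours in this order overlapped across libraries. In GRCm38, Bhlhe40 spans chr6:108660629-108666925 on the plus strand, with merged exons of 4705 bases. Batf spans chr12:85686669-85709087 on the plus strand (exons of 1406 bases) and Bcl11b chr12:107910403-108003602 on the minus strand (exons of 8111 bases). The longest merged exons were those of Bcl11a (13175 bases, chr11:24078056-24174123, plus strand), followed by Bach2 (9940 bases, chr4:32238804-32586108, plus strand).

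The second comparison asked how the obesogenic diet bears on each cell type. Between obese and lean NK cells, 0 of the 9 genes were called by edgeR's quasi-likelihood test and 0 had an unadjusted p under 0.05. Of all genes tested 0% were called, and 31 had an unadjusted p under 0.05. At the same thresholds, the paper's SARTools analysis of all genes called genes between these groups, mostly higher in obese mice, among them Cd200r1 and Cd101. Here Cd200r1 had a log2 fold change of 2.58 (SE 0.673) and was not called. Why the results differ was not tested. DESeq2 called 8 genes and edgeR's likelihood-ratio test 2 in the whole table, and none of the 9. Among the 9 genes the NK groups did not overlap for Cbfa2t3, higher in obese mice, beside 16.2% of all genes tested. Bcl11a, which was not tested, lay at or near the floor of 3 counts in all NK libraries. The log2 fold change of obese over lean NK was 0.57 (SE 0.586, adjusted p = 1) for Cbfa2t3 and 0.61 (SE 0.796, adjusted p = 1) for Bach2. The Bach2 value was 0.083 without lean NK of mouse 27 and 1.22 without lean NK of mouse 26.

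Between obese and lean ILC1, 0 of the 9 genes were called and 1, Bhlhe40, had an unadjusted p under 0.05. Of all genes tested 0% were called by edgeR's quasi-likelihood test, 277 had an unadjusted p under 0.05, and DESeq2 called 77 and the likelihood-ratio test 57, none of them among the 9. The ILC1 groups did not overlap for 3 of the 9 genes, beside 15.2% of all genes tested: Bach2 was higher in obese ILC1, and Bcl11b and Bhlhe40 were lower. The log2 fold change of obese over lean ILC1 was -0.69 (SE 0.213, adjusted p = 0.287) for Bhlhe40 and -1.68 (SE 1.02, adjusted p = 0.588) for Bcl11b. It was 1.26 (SE 0.806, adjusted p = 0.622) for Bach2 and 1.47 (SE 0.785, adjusted p = 0.535) for Bcl6. It was 0.70 for Bach2, 1.95 for Bcl6 and -1.11 for Bcl11b once obese ILC1 of mouse 25 was left out. With that of mouse 26 left out it was 0.25 for Bcl6 and -2.46 for Bcl11b. With the 3 libraries that stood apart left out, which leaves mouse 27 alone in obese ILC1, Crem was called higher (1.90, SE 0.371, adjusted p = 0.0404).

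The difference between the diet effects in ILC1 and NK cells was called for 0 of the 9 genes, of which 1 had an unadjusted p under 0.05, and for 0% of all genes tested, of which 155 had. For Bhlhe40 it was -0.67 (SE 0.300, adjusted p = 0.818), so the lower level in obese ILC1 was not shown to be particular to 1 cell type.

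Few genes in the lists of related regulators were called between ILC1 and NK cells. None of those called came from the lists of dimer partners and co-activators or of corepressor and chromatin genes. The shares called among all genes tested were 3.15% higher and 1.19% lower in ILC1. Of 21 dimer partners and co-activators of the ATF, CREB, CRTC and C/EBP families, 18 were tested and 0 called by edgeR's quasi-likelihood test, 1 with an unadjusted p under 0.05, and their median log2 fold change was -0.03. Of 15 corepressor and chromatin genes, all were tested and 0 called, none with an unadjusted p under 0.05, with a median of -0.26. Of 6 other helix-loop-helix genes, 5 were tested and Ahr, the aryl hydrocarbon receptor, was called higher in ILC1. An unadjusted p under 0.05 was found for 2 of the 5, and the median log2 fold change of the 5 was 0.04. Of 11 other regulators, 9 were tested and Ciita, the activator of MHC class II genes, was called higher. Among these 9, an unadjusted p under 0.05 was found for 3, and the median log2 fold change of the 9 was -0.59. No gene of these lists was called between diets in either cell type, where 0% of all genes tested were called.

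Ahr had 26, 9 and 3 normalized counts in lean NK and 11, 29 and 39 in obese NK. It had 158, 83 and 139 in lean ILC1 and 158, 132 and 226 in obese ILC1, so that every ILC1 library lay above every NK library. The averaged log2 fold change was 2.98 (SE 0.653, adjusted p = 0.0229), with an adjusted p of 0.125 with the mouse as a block and 0.0198 to 0.0875 as each library was left out. Ciita had at most 6 normalized counts in NK libraries, 148, 50 and 77 in lean ILC1 and 0, 1075 and 71 in obese ILC1, where the highest value was again in mouse 26. Its log2 fold change was 6.07 (SE 1.54, adjusted p = 0.0446), and without that library it was 4.39 (adjusted p = 0.0959). With the mouse as a block its adjusted p was 0.367, and it ran from 0.00601 to 0.170 as each library was left out.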

How the data were processed

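Liver NK cells and ILC1 of 6 mice gave 12 libraries, prepared with a kit for low input from 2 ng of RNA each. The authors deposited raw read counts per gene, as whole numbers without normalization, and a score for each, which is the count divided by a factor for each library (0.57 to 1.516) and rounded. This score is called the normalized count here. Per the submitters' processing notes, bcl2fastq 2.19, Trimmomatic 0.36.5, STAR 2.5.2b and featureCounts 1.6.0.2 were used with build mm10, and the annotation is not given in the sources used here. The authors analysed differential expression with SARTools, at thresholds of 2 for the fold change and 0.05 for the adjusted p, which were kept here.

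Genes with complete rows (5545) were used and 1 incomplete row was left out. Totals and CPM cover these genes alone, so totals understate the depth and CPM overstate the share of a whole library. Counts were tested in R 4.3.3 with edgeR 4.0.16 (TMM, filterByExpr, glmQLFit and glmQLFTest, 1 model of 4 groups) with Benjamini-Hochberg adjustment over 2606 genes. Standard errors were derived from the F statistic (size of the log2 fold change over the square root of F). The averaged comparison set the mean of both ILC1 groups against the mean of both NK groups. Bcl11a, outside the fit, was compared by an exact permutation test. DESeq2 1.42.0 was an alternative. Overlap between groups was judged on the normalized count. The fits were checked on simulated counts with changes well above the fold threshold, without paired mice, gaps or an outlying library. That check does not bear on smaller differences or on such libraries. Exon lengths and positions were looked up by symbol in GENCODE for GRCm38. The floor of 3 counts allows for counting error alone. It does not allow for the libraries with gaps, where genes high elsewhere had at most 2 counts.

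The 10 genes and all lists were chosen with earlier results of these data known. All 10 genes are named, and of the lists of related regulators the genes called between ILC1 and NK cells. Each mouse gave both an NK and an ILC1 library, as the series design states. Deviations of these pairs from their group means correlated at -0.0133, 0.102 and 0.0556 in lean mice and -0.0763, -0.0531 and 0.141 in obese mice. Libraries of 1 group differed by more than sampling noise.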

Additional observations from a re-analysis of the deposited data

How the results depend on the processing

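Of 558 values of single genes under alternatives, 500 were unchanged, 31 lost a call, 17 gained one and 10 changed sign. The calls lost were those of Ahr (8 of 20 alternatives), Ciita (13 of 20) and Bhlhe40 in obese mice (10 of 22). No other result had a call to lose, so most unchanged values were uncalled in both settings. The setting with no fold threshold reuses the main fit, so its fold changes could not differ. Unchanged fold changes kept their direction and their side of the thresholds. Ratios of mean levels have no call and were unchanged where they shifted by less than the SD of the ILC1 libraries divided by the NK mean. All 10 that changed sign were uncalled. As each library was left out, the averaged ILC1 minus NK log2 fold change of Bach2 ran from -0.52 to 0.055, of Batf3 from -3.30 to 2.07, of Bcl6 from -0.27 to 0.60 and of Cbfa2t3 from -0.12 to 0.53. Without obese ILC1 of mouse 26 and lean NK of mouse 27 together, Batf3 was 1.35, Bcl6 -0.28 and Cbfa2t3 -0.15. Without obese ILC1 of mouse 25 as well, Batf3 was 1.72, Cbfa2t3 -0.65 and, in obese mice, Crem 0.13. These 2 settings were chosen after seeing the data, and the latter leaves 1 obese ILC1 library, which is assumed to vary like the other groups.

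Averaged over diets, 113 genes of the table were called between ILC1 and NK cells: 222 by DESeq2, 232 by the likelihood-ratio test, 62 with at least 10 counts in every library, 46 with the mouse as a block, 177 without both libraries, 245 without all 3 and 63 to 161 as each library was left out. In lean mice the 60 calls became 151 by DESeq2, 122 by the likelihood-ratio test, 21 with the block, 101 without both, 219 without all 3 and 29 to 102 with 1 left out. In obese mice the 24 calls became 154, 122, 61 with at least 10 counts in every library, 0 with the compared libraries alone, 0 with the block, 107, 154 and 5 to 66. Between diets the 0 calls in NK cells became 8 by DESeq2, 2 by the likelihood-ratio test, 5 without all 3 and 0 to 1 with 1 left out, and the 0 calls in ILC1 became 77, 57, 28 and 0 to 6, with 5 without both. The causes were not tested.

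Among the 10 genes, the 0 averaged calls became 1 by DESeq2 and 1 by the likelihood-ratio test (Bcl11b in both), 1 with no fold threshold (Bhlhe40), 1 without both libraries (Batf), 2 without all 3 (Batf and Bcl11b) and 0 to 1 with 1 left out. In lean mice they became 1 with the compared libraries alone (Bcl11b), 2 without all 3 (Bcl11b higher and Crem lower) and 0 to 1. In obese mice the 1 call became 0 with the compared libraries alone, 0 with the block, 2 without both (Batf and Bhlhe40), 3 without all 3 (Batf and Bcl11b higher, Cbfa2t3 lower) and 0 to 2. Between diets 1 gene, Crem in ILC1, was called without all 3, and 0 otherwise. Bhlhe40 in obese mice lost its call without lean NK of mouse 25, any obese NK library or any lean ILC1 library. The block changed no other call among the 10 genes. The labels link equally numbered lean and obese mice by the number alone, and whether they shared a litter or a day of work is not given. The correlation of their deviations was -0.0145 to 0.0236 in NK cells and -0.0128 to 0.0768 in ILC1, and the block left 0 calls. DESeq2's size factors moved the median of all genes by at most 0.0582 on the log2 scale. The comparison averaged over diets uses all libraries, so no fit on the compared libraries alone exists for it.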
